A study of Mus musculus with 6 samples.

Results

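The coagulation and fibrinolysis genes examined here are 36 genes chosen by name, all 36 of which were found among the 24063 symbols of the raw count table. They encode the plasma clotting factors, their cofactors and inhibitors, the enzymes that dissolve fibrin, and the enzymes of the vitamin K cycle. RNA was sequenced from liver tumors of male mice labelled C57BL/6, 3 libraries with the genotype NR2E3+/+ (WT) and 3 with NR2E3-/- (Nr2e3-/-). Mice of both genotypes had received the hepatocarcinogen diethylnitrosamine (DEN), 25 mg per kg, when 15 days old, and the tumors are those of the 24-week time point. NR2E3 is an orphan nuclear receptor, and the study asked which genes differ in tumors that form without it. The knockout is carried by the whole animal, and the methods name C57BL/6J mice from a commercial supplier as the WT mice of the acute injury experiment, without a source for those of the tumor experiment. The methods count 3 mice per genotype, and each library is taken here as 1 mouse.

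Blood clotting is a chain of serine proteases that activate each other and end with thrombin, which cuts fibrinogen to fibrin. Tissue factor starts the chain outside the vessel and the contact system inside it, and antithrombin, protein C and tissue factor pathway inhibitor hold it back. Fibrinolysis is the reverse step, in which plasminogen is activated to plasmin and digests the clot. Hepatocytes make most of these proteins, and several zymogens need vitamin K-dependent carboxylation before they can bind membranes. Fibrinogen is also an acute phase protein of the liver, while endothelial cells, macrophages and other cells supply thrombomodulin, von Willebrand factor, factor VIII, the plasminogen activators and the A subunit of factor XIII.

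The authors deposited raw read counts per gene, from 15376261 in Nr2e3-/- replicate 1 to 28690279 in WT replicate 2. Levels are given here as normalized CPM, counts per 1000000 counts of a library after TMM scaling in edgeR. The hepatocyte markers listed for the tissue check, Alb and Apoa1 among them, were measured in all 6 libraries. Their summed levels were between 121776 and 163099 CPM, of which Alb alone was 84013 to 130236 CPM. At an unadjusted p-value under 0.05 in edgeR, 1 of 10 (Tat) was higher, against 11.8% of all genes. Nr2e3 itself had 0 counts in all libraries, which allows up to 0.101 to 0.199 CPM depending on the library, so the genotype could not be checked from it. Over 13572 genes tested, the median distance from the WT mean on the log2 scale was 0.21 for Nr2e3-/- replicate 1 against 0.35 and 0.34 for replicates 2 and 3. Nr2e3-/- replicate 1 thus lay nearer to the WT tumors than the other two, and values without it are given for the genes whose test it changes. Because it was singled out by this distance, leaving it out favours larger differences and smaller p-values. Values without it therefore describe its weight and are no independent check of a difference. Since these are bulk tumors, fewer cells of a type and less RNA per cell cannot be told apart.

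All 36 genes passed the filter on low counts. The 3 fibrinogen chains were about 2.2-fold higher in Nr2e3-/- tumors, Cpb2 1.65-fold and F9 1.30-fold higher, and most other factors made by hepatocytes had levels that overlapped between the genotypes. Several weakly measured genes assigned to other cells, Plaur, F13a1 and Thbd, stood much higher in Nr2e3-/- replicates 2 and 3 and not in replicate 1. None of these differences passed the main test, edgeR's quasi-likelihood F test with Benjamini-Hochberg adjustment over all genes. It called 0 of the 36 genes with an adjusted p-value under 0.05, where 0.0958% of all genes were called. With an unadjusted p-value under 0.05 in edgeR, 9 of the 36 (25%) were higher, against 11.8% of all genes, and 1 (2.78%) was lower, against 9.72% of all genes. With upper quartile scaling these were 8 and 1, against 8.12% and 13.1% of all genes. Groups did not overlap for 7 genes that were higher (19.4%, against 13.9% of all genes) and 2 that were lower (5.56%, against 12.9%), and 6 genes (16.7%, against 2.84%) had a log2FC (log2 fold change, Nr2e3-/- over WT) above 1. DESeq2 called 7 of the 36 by adjusted p-value (19.4%, against 7.93% of genes), all of them higher, a direction in which it called 4.87% of genes. By the same rule limma-voom called 8 (22.2%, against 17.4% of genes), of which 6 were higher (16.7%, against 9.48%). Without Nr2e3-/- replicate 1, edgeR called 11 of the 36 (30.6%, against 21.8% of all genes), of which 10 were higher (27.8%, against 12.2%). Under the other edgeR settings it called none of the 36, and between 0% and 0.372% of all genes. Across the 36 the median log2FC came to 0.09, beside 0.01 over all genes tested.

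**Figure D1:**
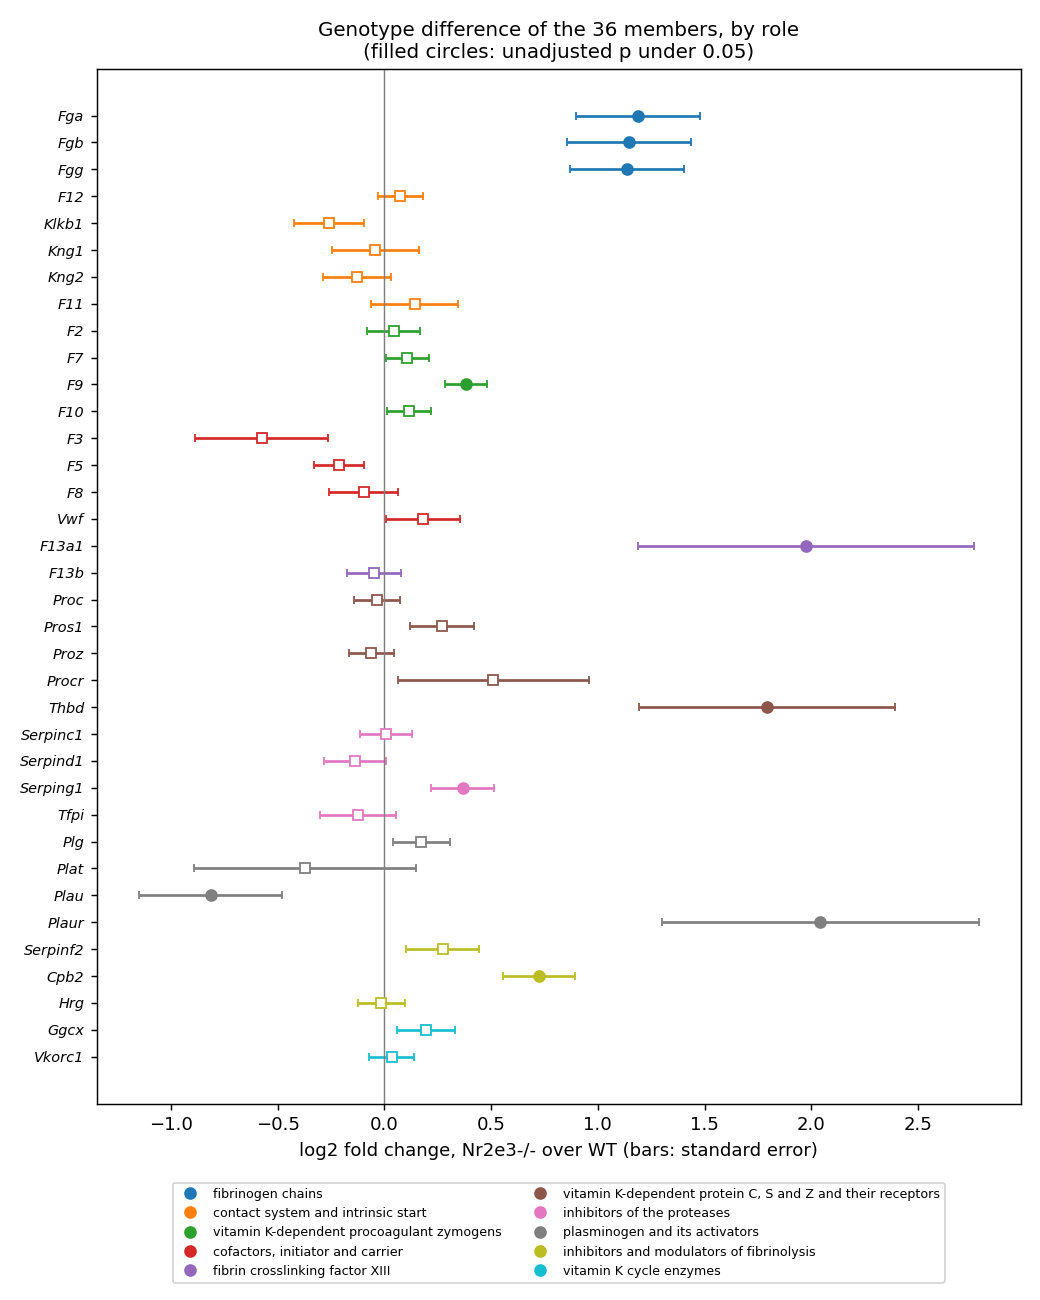
Log2FC of Nr2e3-/- over WT tumors for the 36 genes (horizontal axis, bars are standard errors from edgeR), coloured by role, with filled circles for an unadjusted p-value under 0.05. The 3 fibrinogen chains sit together between 1.14 and 1.19, Plaur, F13a1 and Thbd lie farther right with wide bars, and most other genes lie close to 0.

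Fibrinogen, the precursor of the clot, is a hexamer of pairs of the alpha, beta and gamma chains encoded by Fga, Fgb and Fgg. Per kilobase of annotated exon, these were the highest of the 36 genes in both genotypes, with WT levels of 1570.03 CPM per kb for Fga, 1451 for Fgg and 1166 for Fgb, ahead of Kng1 at 869.98 and Plg at 610.2. The 3 genes lie next to each other on chromosome 3 of GRCm38, Fgg from 83007724 to 83015056, Fga from 83026153 to 83033627, and Fgb from 83042246 to 83049863 on the opposite strand. The 250 bases before each start are shown because these genes were higher together, with that of Cpb2, another gene with a small p-value. They come from RefSeq windows on GRCm38.p6, which matched 28 of the 36 genes, and run 5′ to 3′ on the strand of the gene. Capitals mark matches, on either strand, to 4 motifs, the STAT site TTCNNNGAA, the C/EBP site TTGCNNAA, the HNF4 site CAAAGTCCA and the NR2E site AAGTCA.
Fgg, chr3:83007474-83007723, plus strand: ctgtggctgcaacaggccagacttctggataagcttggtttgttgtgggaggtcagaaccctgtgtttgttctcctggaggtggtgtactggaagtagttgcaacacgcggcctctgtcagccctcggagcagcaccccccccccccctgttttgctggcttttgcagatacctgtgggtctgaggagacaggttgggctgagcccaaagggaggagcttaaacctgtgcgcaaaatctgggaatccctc
Fga, chr3:83025903-83026152, plus strand: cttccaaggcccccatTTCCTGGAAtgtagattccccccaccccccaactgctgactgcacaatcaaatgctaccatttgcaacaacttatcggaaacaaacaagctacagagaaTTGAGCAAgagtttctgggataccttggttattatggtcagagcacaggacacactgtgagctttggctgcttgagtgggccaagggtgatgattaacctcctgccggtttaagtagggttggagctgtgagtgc
Fgb, chr3:83049864-83050113, minus strand: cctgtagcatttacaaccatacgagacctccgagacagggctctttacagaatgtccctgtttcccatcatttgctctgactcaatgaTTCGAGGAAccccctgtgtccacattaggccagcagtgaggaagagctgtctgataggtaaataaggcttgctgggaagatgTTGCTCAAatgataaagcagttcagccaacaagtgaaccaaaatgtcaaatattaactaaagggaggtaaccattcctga
Cpb2, chr14:75242037-75242286, plus strand: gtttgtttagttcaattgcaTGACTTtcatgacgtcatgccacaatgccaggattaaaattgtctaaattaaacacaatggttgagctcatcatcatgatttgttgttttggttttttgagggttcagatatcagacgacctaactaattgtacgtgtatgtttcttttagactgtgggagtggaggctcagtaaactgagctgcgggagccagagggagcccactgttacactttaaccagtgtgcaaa
The windows of Fga and Fgb each held a STAT and a C/EBP match, that of Cpb2 an NR2E match, and that of Fgg no match to these letters. Over the genes with such a window, a STAT match was found in 8.13% of all 27025 and in 4 of the 28 (Pros1 is the fourth), and a C/EBP match in 10.8% and in 10 of the 28. Both together were found in 0.87% of all genes and in 3 of the 28. An NR2E match was found in 14.8% of all genes and in 5 of the 28, and an HNF4 match in 0.451% and in 0 of the 28. The remaining gene with both a STAT and a C/EBP match is F9, whose window lies before a start inside the gene as placed here, so that 135 of its 250 bases overlap the gene. The same holds in part or whole for 12 of the 28 genes, F9 included, and not for the 4 windows shown. A match is a sequence description, and no binding was measured in these tumors.

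Fga stood at 4771, 5040.4 and 4366 CPM in the WT tumors and, in the order of replicates, at 6295, 13323 and 12702 CPM in the Nr2e3-/- tumors. Fgb stood at 4759, 4721 and 3847 CPM in WT and at 5828, 12506 and 11153 CPM in Nr2e3-/-. Fgg stood at 3083, 3268 and 2759 CPM in WT and at 4149, 8336 and 7535 CPM in Nr2e3-/-. For each chain, all Nr2e3-/- tumors were above all WT tumors, with replicate 1 the lowest of them and replicates 2 and 3 more than double the WT mean. On the log2 scale replicate 1 lay above the WT mean by 0.41 for Fga, 0.39 for Fgb and 0.45 for Fgg. The log2FC values were 1.19 for Fga (standard error, SE, 0.29, adjusted p = 0.113), 1.15 for Fgb (0.29, adjusted p = 0.119) and 1.14 for Fgg (0.27, adjusted p = 0.109), from edgeR. DESeq2 gave adjusted p-values of 0.00133, 0.00226 and 0.00102 for the same chains in this order, and limma-voom 0.0146, 0.0162 and 0.0146. Over all 13 alternatives, the edgeR, DESeq2 and limma-voom log2FC values ranged from 0.94 to 1.47 over the 3 chains, with an unadjusted p-value under 0.05 in each of the 13. Without Nr2e3-/- replicate 1 the edgeR adjusted p-values were 0.00318 for Fga, 0.00442 for Fgb and 0.00362 for Fgg. With any other single library left out, they were between 0.165 and 0.370 over the 3 chains.

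The proportions of the chains to each other overlapped between the genotypes. The ratio of Fga to Fgb counts was between 1.003 and 1.13 in WT and between 1.07 and 1.14 in Nr2e3-/- tumors (exact permutation test, two-sided, p = 0.5), and that of Fgg to Fgb was between 0.648 and 0.717 in WT and between 0.667 and 0.712 in Nr2e3-/- tumors (exact permutation p = 1). Together, the chains took 1.30%, 1.34% and 1.16% of all counts in WT tumors and 1.60%, 3.25% and 2.996% in Nr2e3-/- tumors. Their summed level was 12205 ± 1088 CPM (SD, n = 3) in WT and 27275 ± 9630.4 CPM (SD, n = 3) in Nr2e3-/- tumors, a ratio of 2.23 (two-sided exact permutation p = 0.1, which is the lowest value possible with 3 against 3). The summed level of the other 33 genes was 15926 ± 287 CPM (SD, n = 3) in WT and 16642 ± 1502 CPM (SD, n = 3) in Nr2e3-/- tumors, a ratio of 1.04 (exact permutation p = 0.8). Fibrinogen thus made up 41.3% to 44.6% of the counts of the 36 genes in WT tumors and 50.3%, 65.1% and 67.0% in the Nr2e3-/- replicates.

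**Figure D2:**
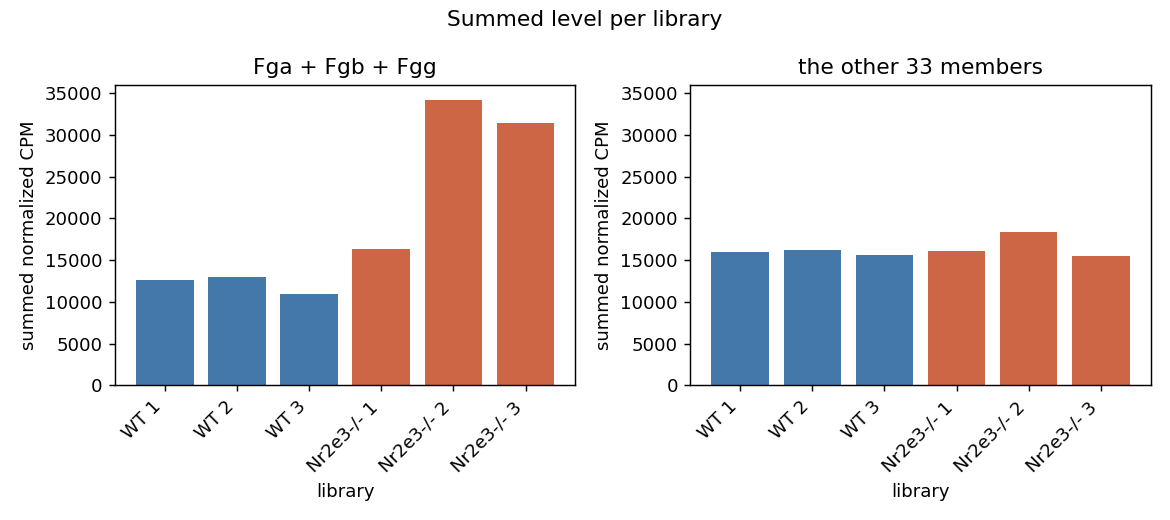
Summed normalized CPM (vertical axes, from 0 on the same scale) of Fga, Fgb and Fgg (left) and of the other 33 genes (right), with 1 bar per library. The fibrinogen bars of Nr2e3-/- replicates 2 and 3 reach 34165 and 31389.6 CPM against 10972 to 13029 in WT, while the bars of the other genes stay between 15487 and 18340.1 CPM.

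Other members that lie beside each other in the genome had smaller differences. F7, F10 and Proz on chromosome 8 had log2FC values of 0.11, 0.12 and -0.06, Hrg, Kng2 and Kng1 on chromosome 16 had -0.01, -0.13 and -0.04, and F11 and Klkb1 on chromosome 8 had 0.14 and -0.26. Plrg1, a splicing factor gene next to Fgb and no clotting gene, had a log2FC of 0.65 (SE 0.16, edgeR adjusted p = 0.117).

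As a sum, the 10 acute phase genes listed other than fibrinogen were high in Nr2e3-/- replicates 2 and 3, while replicate 1 lay inside the WT range. Their summed level was 4457 to 7285 CPM in WT and 5824, 15690.2 and 12498 CPM in Nr2e3-/- replicates 1, 2 and 3. Hp was the largest part, at 2073 to 3581 CPM in WT and 2479, 6225 and 4915 CPM in Nr2e3-/- tumors. Groups overlapped for Hp, Itih4, Lcn2, Orm2 and Apcs, and not for Saa1, Saa2, Orm1, Orm3 and Crp. The median log2FC of the list was 1.32, with 7 of 10 higher by unadjusted p-value in edgeR (11.8% of all genes) and 0 at an adjusted one. Among the hepatocyte transcription factors, Cebpb, which encodes a C/EBP protein, stood at 75.2 to 91.6 CPM in WT and at 96.9, 227 and 184 CPM in Nr2e3-/- tumors (log2FC 1.04, edgeR adjusted p = 0.131). Cebpa, of the same family, had a log2FC of -0.36 (edgeR adjusted p = 0.152), and over the list of 10 factors 4 were higher and 2 lower at an unadjusted p-value under 0.05, against 11.8% and 9.72% of all genes. The part of these genes in the fibrinogen difference was not tested.

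Of the vitamin K-dependent procoagulant zymogens, factor IX differed most. F9, on chromosome X from 59999329 to 60030760, encodes the protease that activates factor X together with factor VIII. It stood at 207, 211 and 223 CPM in WT and at 274, 291 and 270.1 CPM in Nr2e3-/- tumors. The groups did not overlap and, unlike for fibrinogen, replicate 1 was as high as the other two. The log2FC was 0.38 (SE 0.10), with an adjusted p of 0.124 in edgeR and 0.00486 in DESeq2, and stayed between 0.30 and 0.41 in all 13 alternatives, with an unadjusted p-value under 0.05 in each. Without Nr2e3-/- replicate 1 the edgeR adjusted p was 0.0368, and with any other single library left out it was between 0.189 and 0.360. F10, the zymogen of the protease that cuts prothrombin, also did not overlap between groups, at 375, 384 and 392 CPM in WT and 437, 409 and 401 CPM in Nr2e3-/- tumors, but its log2FC of 0.12 (standard error 0.10) had an edgeR adjusted p = 0.524. F2, which encodes prothrombin, stood at 1704 ± 101 CPM (SD, n = 3) in WT and 1756 ± 126 CPM (SD, n = 3) in Nr2e3-/- tumors, and F7, which encodes the partner of tissue factor, at 86.2 ± 0.592 and 92.8 ± 8.03 CPM. Both overlapped between groups.

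In the contact system and the start of the intrinsic pathway, 0 of 5 genes reached an unadjusted p-value of 0.05 in edgeR, and all 5 overlapped between groups. F12, the zymogen that starts contact activation, was at 408 to 447 CPM in WT and 436 to 471 CPM in Nr2e3-/- tumors. Klkb1, which encodes plasma prekallikrein, had the largest difference of the 5, with 191, 205 and 235 CPM in WT and 215, 148 and 164 CPM in Nr2e3-/- tumors, a log2FC of -0.26 (edgeR adjusted p = 0.387). Without Nr2e3-/- replicate 1 it was -0.42 (edgeR adjusted p = 0.0563), and without replicate 2 it was -0.15. Kng1 and Kng2, which encode kininogens, varied more between Nr2e3-/- tumors than between genotypes, Kng1 from 2316 to 3591 CPM. They are close copies of each other, and how the counting split reads between them is not known.

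Cofactors and the carrier of factor VIII showed small differences. F5, which encodes the cofactor of factor Xa, stood at 862, 1007 and 918 CPM in WT and at 834, 804 and 769 CPM in Nr2e3-/- tumors, lower in each Nr2e3-/- tumor than in any WT tumor, with a log2FC of -0.21 (SE 0.12, edgeR adjusted p = 0.333). F3, which encodes tissue factor, stood at 5.49, 5.75 and 4.79 CPM in WT and at 5.03, 3.71 and 2.05 CPM in Nr2e3-/- tumors (log2FC -0.58, edgeR adjusted p = 0.316 and 0.0396 from limma-voom), with overlapping groups. Its log2FC was -0.86 without replicate 1 (edgeR adjusted p = 0.0680) and -0.29 without replicate 3. F8, which overlaps the annotated gene Fundc2, and Vwf, which encodes von Willebrand factor, had log2FC values of -0.10 and 0.18 (edgeR adjusted p = 0.742 and 0.557). The sum of 12 endothelial markers was 494 to 508 CPM in WT and 417 to 523 CPM in Nr2e3-/- tumors. The defining markers Pecam1 and Cdh5 were present in all libraries and overlapped between groups. At an unadjusted p-value under 0.05 in edgeR, 1 of the 12 was higher (Lyve1, log2FC 0.82), against 11.8% of all genes. By the same threshold 2 were lower (Kdr -0.61 and Emcn -0.62), against 9.72% of all genes. F2, F5 and Proz also overlap annotated genes in the table, which have 1.04%, 2.29% and 5.67% of their counts, and for F8 the share is 23.7% and for Serpind1 8.55%.

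Factor XIII crosslinks fibrin and is built from A and B subunits of different cells. F13b, whose product comes from hepatocytes, overlapped between groups, with 221 ± 17.3 CPM (SD, n = 3) in WT and 214 ± 24.9 CPM (SD, n = 3) in Nr2e3-/- tumors. F13a1, known from macrophages and megakaryocytes, stood at 1.15, 1.49 and 0.555 CPM in WT and at 0.596, 7.87 and 3.89 CPM in Nr2e3-/- tumors. Replicate 1 lay inside the WT range and the other two above it, which gave a log2FC of 1.98 with a standard error of 0.79 (edgeR adjusted p = 0.21). Without Nr2e3-/- replicate 1 it was 2.48 (edgeR adjusted p = 0.0141), and without replicate 2 it was 1.10 (adjusted p = 0.426).

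The protein C system, which shuts off factors V and VIII, had its largest difference at the receptor thrombomodulin. Thbd stood at 9.56, 6.97 and 5.34 CPM in WT and at 6.89, 45.1 and 23.2 CPM in Nr2e3-/- tumors. Again replicate 1 lay inside the WT range and the other two well above it, and the log2FC was 1.79 (SE 0.60), with an adjusted p of 0.165 in edgeR and 0.0182 in DESeq2. Leaving out replicate 1 gave 2.24 (edgeR adjusted p = 0.00823), and leaving out replicate 2 gave 1.06 (edgeR adjusted p = 0.291). Procr, which encodes the endothelial protein C receptor, was low, at 0.653 to 1.15 CPM in WT and 0.757 to 2.005 CPM in Nr2e3-/- tumors. Proc and Proz, the genes of proteins C and Z, had log2FC values of -0.03 and -0.06. Pros1, the gene of the cofactor protein S, stood at 83.4 to 88.03 CPM in WT and at 82.6, 121 and 104 CPM in Nr2e3-/- tumors (log2FC 0.27, edgeR adjusted p = 0.329). Its log2FC was 0.41 without Nr2e3-/- replicate 1 (edgeR adjusted p = 0.0368) and 0.13 without replicate 2 (edgeR adjusted p = 0.582).

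Among the inhibitors of the clotting proteases, Serpinc1 (antithrombin) had the smallest difference of the 36 genes. It stood at 1716 ± 87.7 CPM (SD, n = 3) in WT and at 1725 ± 96.6 CPM (SD, n = 3) in Nr2e3-/- tumors, a log2FC of 0.01 with a standard error of 0.12. Serpind1 (heparin cofactor II), which overlaps Pi4ka, had a log2FC of -0.14, and Tfpi, the inhibitor of the tissue factor complex, had -0.12, both with overlapping groups. Serping1, the C1 inhibitor, which also blocks factor XIIa and kallikrein, stood at 595, 599 and 655 CPM in WT and at 673, 929 and 781 CPM in Nr2e3-/- tumors. Its groups did not overlap, by a narrow gap, and its log2FC was 0.37 (SE 0.15, edgeR adjusted p = 0.213), or 0.48 without replicate 1 (edgeR adjusted p = 0.0426) and 0.24 without replicate 2.

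The genes of plasminogen and its activators had differences in both directions. Plg, which encodes plasminogen, stood at 2264 ± 85.9 CPM (SD, n = 3) in WT and 2553 ± 248 CPM (SD, n = 3) in Nr2e3-/- tumors, with overlapping groups (log2FC 0.17, edgeR adjusted p = 0.465). Plau, which encodes the urokinase activator of plasminogen, stood at 3.72, 4.20 and 4.06 CPM in WT and at 3.64, 1.71 and 1.57 CPM in Nr2e3-/- tumors. It was the only 1 of the 36 genes lower at an unadjusted p-value under 0.05 in edgeR, with a log2FC of -0.81 (standard error 0.34, adjusted p = 0.223), and replicate 1 was just below the WT range. Without replicate 1 the log2FC was -1.27 (edgeR adjusted p = 0.00943). It was -0.63 without Nr2e3-/- replicate 2 (edgeR adjusted p = 0.363) and -0.60 without replicate 3 (edgeR adjusted p = 0.511). Plaur, the receptor that holds urokinase on the cell surface, stood at 1.80, 1.76 and 1.08 CPM in WT and at 1.19, 12.99 and 4.597 CPM in Nr2e3-/- tumors. Its log2FC of 2.04 (SE 0.74, edgeR adjusted p = 0.184) was the highest of the 36 genes and rested on replicates 2 and 3. Without replicate 2 it was 0.93 (edgeR adjusted p = 0.380), and without replicate 1 it was 2.53 (edgeR adjusted p = 0.0140). Plat, the tissue-type activator, was low and spread widely in WT, from 0.867 to 3.72 CPM, and covered 1.24 to 2.38 CPM in Nr2e3-/- tumors.

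Of the proteins that slow fibrinolysis, Cpb2 encodes the carboxypeptidase that removes the lysines where plasminogen binds fibrin. Cpb2, on chromosome 14 from 75242287 to 75283555, stood at 342, 296 and 278 CPM in WT and at 408, 604 and 501 CPM in Nr2e3-/- tumors. All Nr2e3-/- tumors were above all WT tumors, with replicate 1 the lowest of them as for fibrinogen. The log2FC was 0.72 (SE 0.17), with an adjusted p of 0.109 in edgeR and 0.00394 in DESeq2, and lay between 0.58 and 0.86 in the 13 alternatives. The edgeR adjusted p was 0.0113 without Nr2e3-/- replicate 1, and between 0.161 and 0.347 with any other single library left out. Serpinf2, the inhibitor of plasmin, stood at 801 to 988 CPM in WT and 917 to 1287 CPM in Nr2e3-/- tumors, and Hrg, a plasma protein that binds plasminogen and heparin, at 978 ± 38.6 CPM (SD, n = 3) and 968 ± 22.7 CPM (SD, n = 3). In the vitamin K cycle, Vkorc1, the epoxide reductase, had a log2FC of 0.03. Ggcx, the carboxylase, had 0.20 (edgeR adjusted p = 0.426), but it overlaps Mat2a, which has 172% of its counts, and the strand setting of the counting is not stated.

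**Figure D3:**
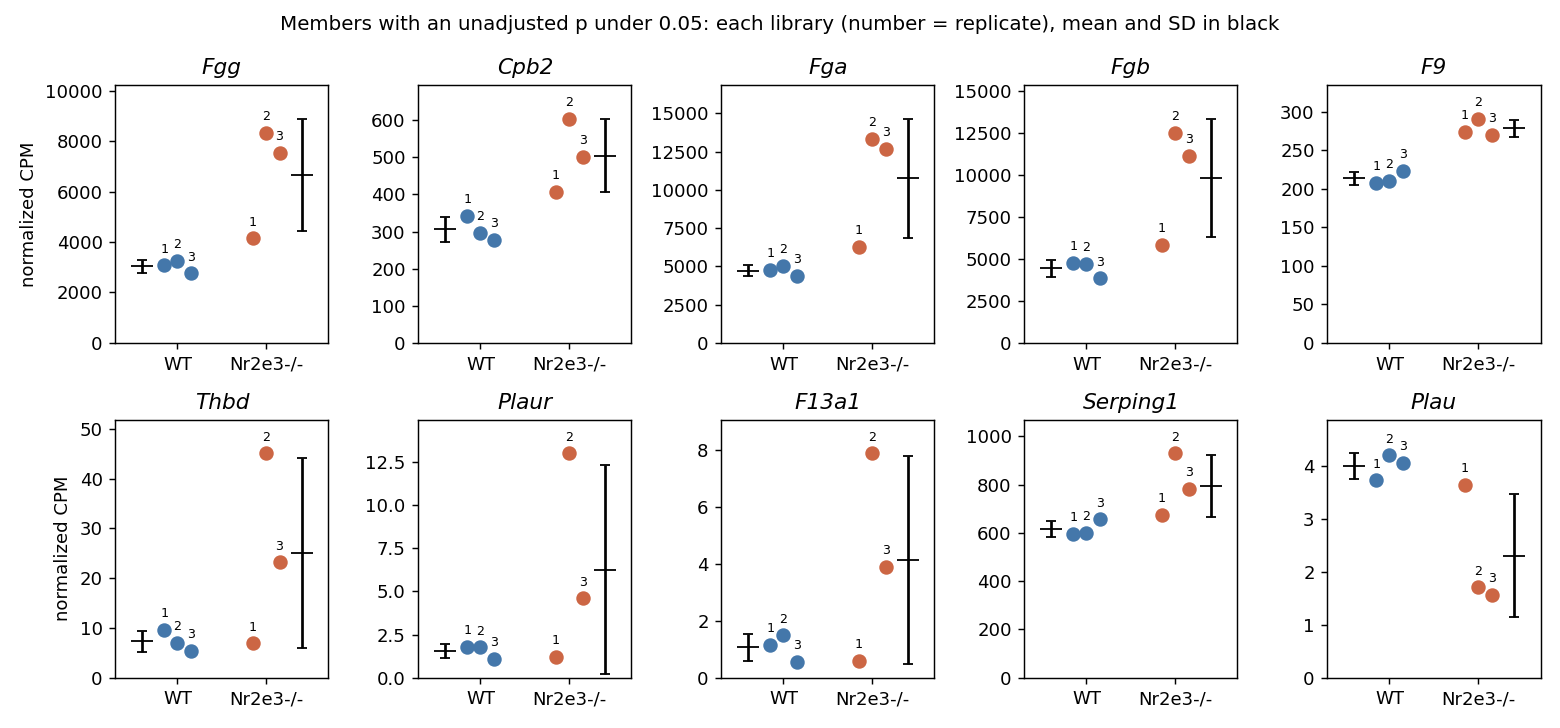
Normalized CPM (vertical axes, from 0) of the 10 genes with an unadjusted p-value under 0.05 in edgeR, each library a point numbered by replicate, with the mean and SD of each genotype in black. Nr2e3-/- replicate 1 is the tumor of its group nearest to WT for 9 of the 10 genes, the exception being F9.

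Genes were assigned to hepatocytes or to other cells by name, and their source was not measured in these bulk tumors. The 10 assigned to other cells were F3, F8, Vwf, F13a1, Procr, Thbd, Tfpi, Plat, Plau and Plaur. As a group they were the lowest and, by median, the most variable. They had WT means of 0.867 to 42.9 CPM, against 64.9 to 4726 CPM for the 26 genes assigned to hepatocytes. Between WT tumors the coefficient of variation had a median of 6.23% over the genes made by hepatocytes and 20.2% over the others, and between Nr2e3-/- tumors it was 10.7% and 45.8%. It was lowest in WT for F7 (0.687%), and highest in Nr2e3-/- tumors for Plaur (97.0%). Apart from fibrinogen, the 23 genes made by hepatocytes had a median log2FC of 0.04, from -0.26 for Klkb1 to 0.72 for Cpb2. Nr2e3-/- replicate 1 was the tumor of its group nearest to the WT mean for 24 of the 36 genes.

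**Figure D4:**
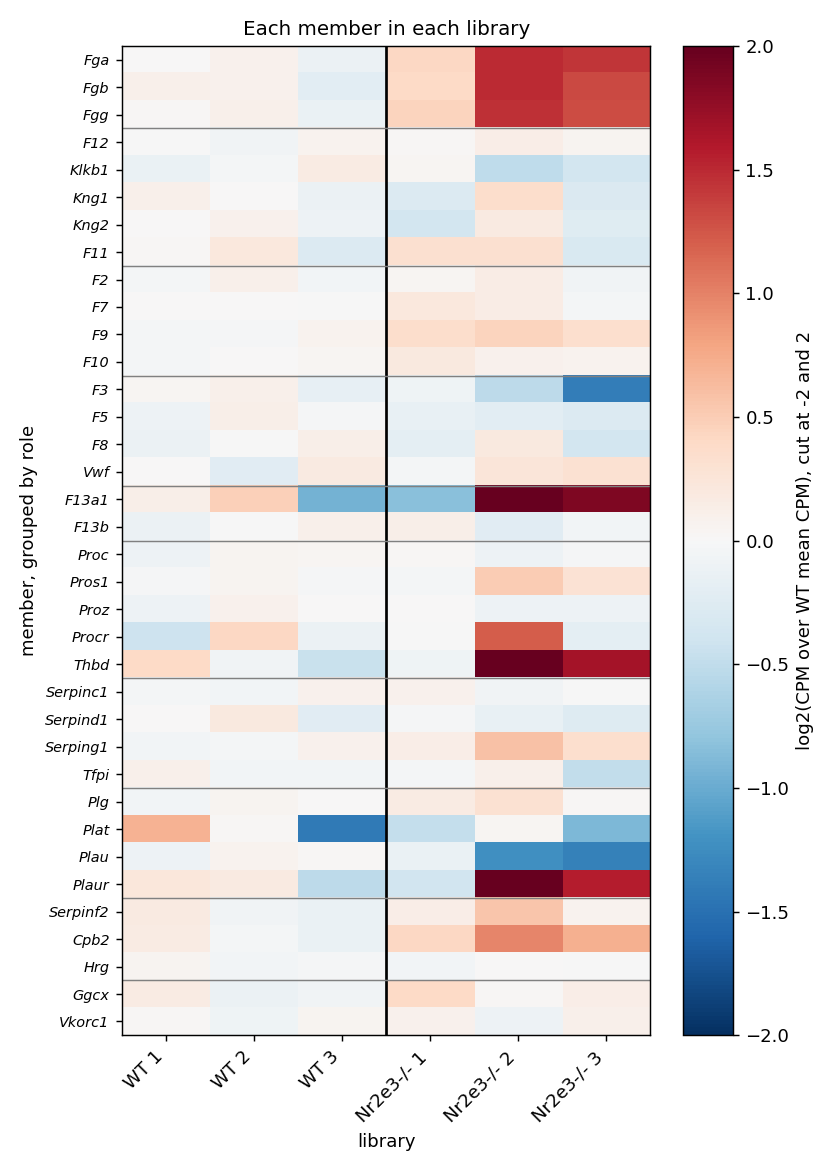
Log2 ratio of each library to the WT mean for the 36 genes (rows, grouped by role, separated by grey lines) in the 6 libraries (columns). Nr2e3-/- replicates 2 and 3 share deep red for fibrinogen, F13a1, Thbd and Plaur and blue for Plau, while replicate 1 is pale for these genes except for blue in F13a1.

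Some markers of other cells were high in the same libraries as Plaur, Thbd and F13a1. The summed level of the neutrophil list was 3.47 to 5.95 CPM in WT and 3.11, 24.2 and 15.5 CPM in Nr2e3-/- replicates 1, 2 and 3. Of its 8 genes 4 were tested, and 3 of these were higher at an unadjusted p-value under 0.05 (S100a8, S100a9 and Cxcr2), against 11.8% of all genes. Cxcr2 had only 6 to 15 counts in the WT libraries. The fourth tested gene, Csf3r, had a log2FC of 0.08 (edgeR adjusted p = 0.937), and Ly6g was not among the counted genes. The granule protein genes Mpo, Elane and Camp had at most 7 counts in any library and did not pass the filter. The macrophage list summed to 362 to 451 CPM in WT and to 311, 779 and 414 CPM in Nr2e3-/- tumors, with 0 of 9 genes at an unadjusted p-value under 0.05, and the platelet list to 3.61 to 5.06 CPM in WT and to 4.37, 5.57 and 3.52 CPM in Nr2e3-/- tumors, with 0 of 5. The bile duct list summed to 57.3 to 119 CPM in WT and to 69.1, 429 and 185 CPM in Nr2e3-/- tumors. Spp1 alone was 56.3, 410 and 171 CPM of these Nr2e3-/- sums. At an unadjusted p-value under 0.05 in edgeR, 2 of 5 were higher (Epcam and Spp1), against 11.8% of all genes. Krt19 had a log2FC of 0.67, but Krt7 had -0.29 and Sox9 -0.21, and the groups overlapped for all genes of this list. The stellate cell and fibroblast list summed to 365 to 450.2 CPM in WT and to 409.7, 257 and 226 CPM in Nr2e3-/- tumors, with 0 of 10. The part of these cells in the results was not tested.

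Of 30 further genes of haemostasis that are not among the 36, 25 passed the filter, and by unadjusted p-value in edgeR 7 were higher (11.8% of all genes) and 1 lower (9.72%), with 0 at an adjusted one and a median log2FC of 0.16. Serpina10, the protein Z-dependent inhibitor of factor Xa made by hepatocytes, stood at 204, 201 and 174 CPM in WT and at 276, 616 and 554 CPM in Nr2e3-/- tumors, with replicate 1 again the lowest of its group (log2FC 1.32, edgeR adjusted p = 0.0997). Proz, its cofactor, had -0.06. Fgl1, a fibrinogen-like protein of hepatocytes, stood at 154, 231 and 136 CPM in WT and at 227, 1223 and 558 CPM in Nr2e3-/- tumors. Its log2FC was 1.95 (edgeR adjusted p = 0.136), with replicate 1 inside the WT range. S100a10, a subunit of a plasminogen receptor, had 1.56 (edgeR adjusted p = 0.0997). A2m, an inhibitor of many proteases, is among the 7 but passed the filter only through the Nr2e3-/- tumors, with 12, 71 and 59 counts there and 12, 2 and 1 in WT. Serpine2 (0.82), Mcfd2 (0.37) and Vkorc1l1 (0.37) were also higher, and Adamts13, the protease that trims von Willebrand factor, was lower (-0.94, adjusted p = 0.158).

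**Figure D5:**
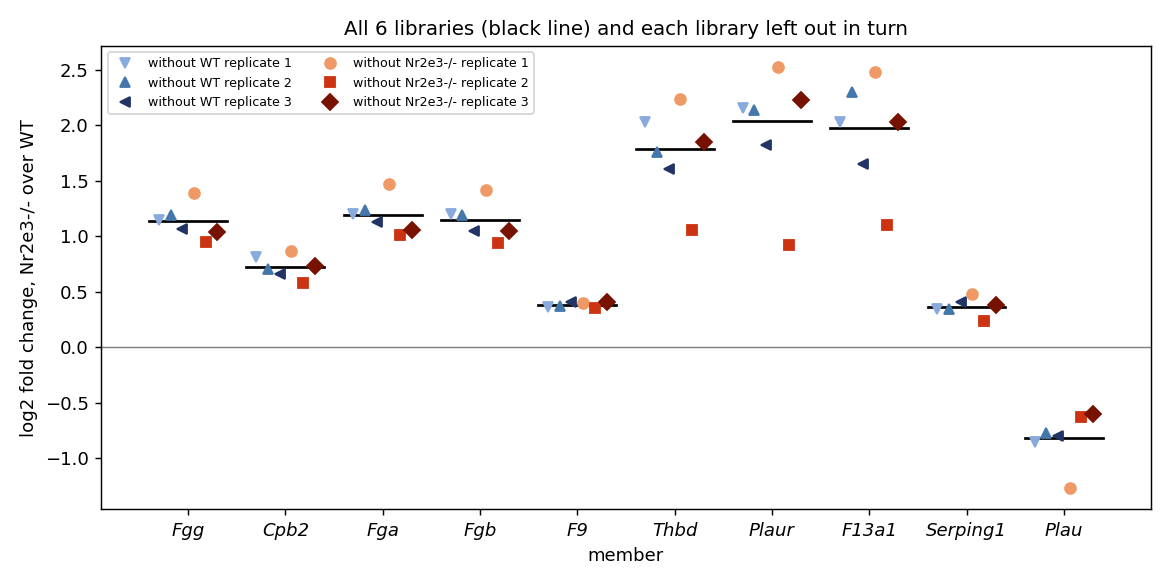
Log2FC of Nr2e3-/- over WT (vertical axis) for the 10 genes with an unadjusted p-value under 0.05, with all 6 libraries (black line) and with each library left out in turn (symbols). For fibrinogen, Thbd, Plaur and F13a1, the log2FC was highest with Nr2e3-/- replicate 1 left out and lowest with replicate 2 left out, and F9 hardly moved.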

How the data were processed

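Liver tumor RNA was prepared with the TruSeq kit, 3 libraries per genotype, and grouped by the genotype in the titles. The dose and age are from the study's methods, and the time point of the sequenced tumors is from a figure legend of the study. The authors aligned single-end reads to mm10 (GRCm38) with TopHat, counted them per gene with FeatureCounts, and deposited raw counts, 15376261 to 28690279 per library. Their normalized table holds the same counts scaled per library, and their comparison table holds fold changes and p-values from DESeq2. Neither was used. Counts were filtered with filterByExpr (minimum count 10, minimum total 15), TMM-scaled, and 13572 genes entered the quasi-likelihood F test (two-sided) of edgeR 4.0.16 in R 4.3.3. Standard errors (SE) are the log2 fold change divided by the square root of F. Alternatives were RLE and upper quartile scaling, DESeq2 1.42.0, voom with sample weights in limma 3.58.1, a filter of 1 count in all, a stricter one of 10 counts per library, a block for the replicate number, and each library left out. The pipeline was tested on simulated data. Positions and promoter windows are from RefSeq GRCm38.p6, exon lengths from GENCODE on GRCm38. Figures used Python 3.11.15, pandas 2.3.3 and matplotlib 3.10.9. The genes, their roles, the marker lists, the motifs and the tests were chosen with earlier results of these data known. All 36 genes are named, with values in every library for fibrinogen and for genes with an unadjusted p-value under 0.05, non-overlapping groups or under 10 counts. Other genes shown by library were chosen after their values were seen, and of the further haemostasis genes those with an unadjusted p-value under 0.05 are named. Limits of 3 counts for a count of 0 cover counting error only.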

Additional observations from a re-analysis of the deposited data

How the results depend on the processing

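The number of the 36 genes with an adjusted p-value under 0.05 was 0 in edgeR under RLE and upper quartile scaling, both other filters and the replicate block. It was 7 with DESeq2 (7.93% of all genes) and 8 with limma-voom (17.4% of all genes). Leaving out single libraries gave 0 to 11, and the 11 came without Nr2e3-/- replicate 1, where 21.8% of all genes were called. By unadjusted p-value (threshold 0.05), 9 were higher and 1 was lower. Leaving out single libraries gave 5 to 10 higher and 0 to 3 lower, where 6.67% to 19.9% of all genes were higher and 5.47% to 17.8% lower, and limma-voom gave 3 lower, where 17.9% of all genes were. Among the fits with a library left out, the highest shares came without Nr2e3-/- replicate 1. With the replicate block (8.97% of all genes higher and 9% lower), 1 was lower (Plau) and 5 were higher (Fga, Fgb, Fgg, F9 and Cpb2). The genes higher here also had an unadjusted p-value under 0.05 in all 13 alternatives, which reuse the same libraries and are no independent checks. The share of all genes that did so was not counted. The numbers are not known to pair the tumors: deviations of same-numbered libraries correlated at -0.08, 0.22 and 0.02, and not every library correlated best with its own number. The median log2 fold change was between 0.01 and 0.11 in all alternatives, 0.01 with upper quartile scaling, which moved the median of all genes to -0.08.

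The 10 genes with an unadjusted p-value under 0.05 kept their direction throughout. Other genes, all with an unadjusted p-value above 0.05, changed sign, and the cause was not tested. With upper quartile scaling F12 had a log2FC of -0.011, F2 -0.042, Serpinc1 -0.075 and Vkorc1 -0.050. With limma-voom F11 had -0.11 and F2 -0.012, and with 10 counts per library Serpinc1 had -0.0095. When single libraries were left out, the log2FC ranged on both sides of 0 for 11 genes, which were Kng1 -0.28 to 0.072, F2 -0.0081 to 0.097, F8 -0.27 to 0.021, F13b -0.13 to 0.034, Proc -0.076 to 0.0014, Procr -0.11 to 0.76, Serpinc1 -0.027 to 0.048, Tfpi -0.25 to 0.032, Plat -0.77 to 0.15, Hrg -0.037 to 0.021 and Vkorc1 -0.0089 to 0.098. Genes under 10 CPM, such as Plaur, F13a1, Procr and Plau, rest on few reads, down to 9 counts for F13a1 in Nr2e3-/- replicate 1, the library with the fewest counts.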
